A study of Saccharomyces cerevisiae with 12 samples.

Results

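Scc2 R787G was compared with an empty plasmid in budding yeast (Saccharomyces cerevisiae) whose chromosomal Scc2 protein was tagged for removal by auxin, so the comparison asks which RNA levels the altered protein still supports. The comparison holds 6 of the 12 libraries of the study, the 3 with the R787G plasmid and the 3 with the empty vector, and it covers the 6087 of 7033 features with a mean TPM (transcript abundance scaled to a fixed total per library) of 1 or more. All strains were W303, mating type MATa, and all carried the W303 mutant alleles of ADE2, HIS3, LEU2, TRP1 and CAN1. The chromosomal SCC2 was fused to an auxin-inducible degron and a FLAG tag (SCC2-AID*-6FLAG-HYG). OsTIR1, a plant auxin receptor that marks such a degron for destruction, was made from the ADH1 promoter at ura3-1. The R787G strain carried a pRS413 plasmid, selected by its HIS3 gene, with scc2-R787G fused to 7MYC. The empty_vector strain, called null in the labels, carried pRS413 without an insert, and the WT strain, used here as a reference level and in the estimate of spread, carried pRS413 with SCC2 fused to 7MYC. Cultures grew overnight in medium without histidine, were diluted to an OD600 near 0.1 and, after 90 min, received 1 mM auxin for 3 h, when they stood at an OD600 of 0.4 to 0.8. All groups, WT included, thus had the degron on the chromosomal SCC2 and received auxin. The labels speak of triplicate cultures, with duplicates for the empty vector although 3 libraries exist, and give no further origin of the replicates, so p-values measure the spread between these cultures. Protein levels were not measured.

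Scc2, with its partner Scc4, loads cohesin onto chromosomes. Cohesin is a ring of Smc1, Smc3, the kleisin Mcd1 and Irr1 that holds sister chromatids together until separase cuts the kleisin at anaphase. In yeast the cell cycle runs on waves of transcription: forkhead factors with Mcm1 and Ndd1 switch on the CLB2 cluster in G2 and mitosis, that cluster includes the gene of the factor Swi5, and as cells leave mitosis genes come on in daughter cells whose products digest the septum and part mother from daughter. In RNA from whole cultures a change in the share of cells at a stage and a change in RNA per cell cannot be told apart.

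SCC2 RNA (YDR180W, chrIV:821295-825776, R64 build) was read first as a check of the labels. Its level, in TPM scaled to a common median between libraries, was 87.2, 101 and 90.9 in the R787G libraries and 12.9, 12.6 and 12.2 in the empty_vector libraries. All R787G libraries stood far above all empty_vector libraries, and below the WT libraries at 121, 129 and 110. The value sums the RNA of the tagged chromosomal gene and of the plasmid gene, so the difference (log2 fold 2.79, SE 0.08) was set by the plasmids and is no result of the protein. The change R787G is an exchange of arginine for glycine in a protein of 1493 residues. The reference coding sequence around it, chrIV:823608-823700 on the + strand, is shown because it places the altered residue. It was read from the S288C reference (RefSeq, R64), not from the W303 plasmid. Capitals mark the codon of that residue, which encodes arginine in the reference; the exchange is known here from the label alone.
SCC2 around the changed codon: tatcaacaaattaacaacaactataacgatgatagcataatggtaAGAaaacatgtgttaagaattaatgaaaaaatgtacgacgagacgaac

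HIS3 (YOR202W), the plasmid's marker and an enzyme of histidine synthesis, ran the other way. It was at 1057, 1364 and 878 scaled TPM in R787G and at 3525, 2610 and 2449 in empty_vector. The lowest empty_vector library stood above the highest R787G library, and WT (907, 851 and 802) lay below or within the R787G range. HIS3 fell by 1.38 on the log2 scale (SE 0.18, limma adjusted p = 0.00380). YOR203W, an open reading frame beside HIS3 that is outside the reference annotation, fell by 1.48 (SE 0.14). The other 6 genes of the histidine pathway had a median fold of -0.20, and none was called; HIS2 was at -0.25 and HIS1 at -0.43.

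**Figure D1:**
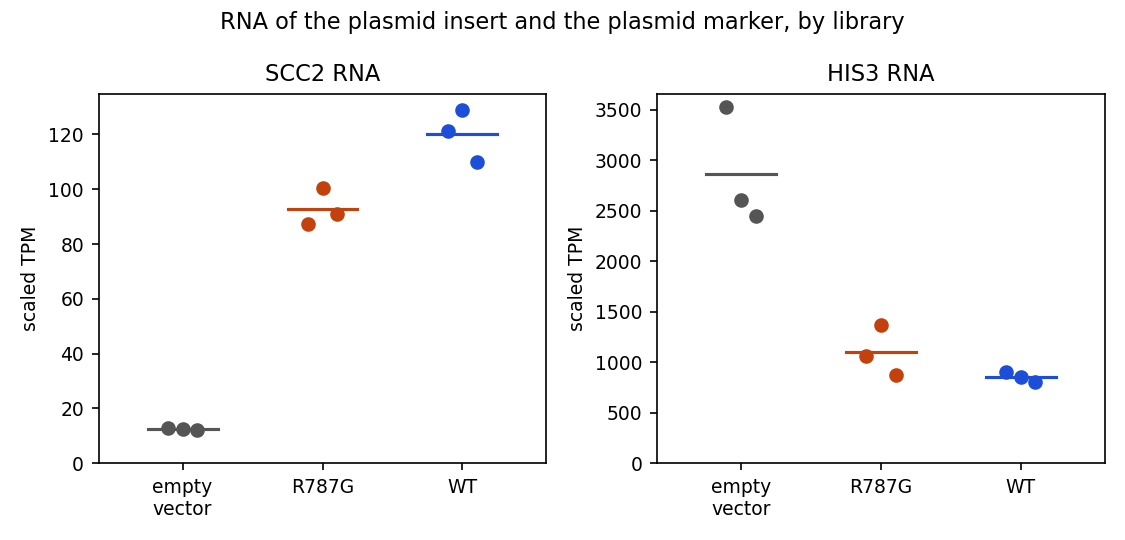
Scaled TPM of SCC2 and HIS3 on linear axes, with 1 point per library and a line at the mean of 3 libraries per group. SCC2 is low in the empty_vector libraries, at 12.2 to 12.9, and HIS3 is high there, at 2449 to 3525.

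The deposited values are RSEM TPM, so read depth is unknown. TPM summed to between 999546 and 999706 in the 9 libraries fitted. Libraries of a group correlated at a Spearman coefficient of 0.985 to 0.995 across features, and libraries of different groups at 0.967 to 0.994. Library 3 of empty_vector stood apart in composition. SCR1, which is part of the signal recognition particle, took 7.07% of its TPM against 11.4% to 15.5% in the other 8, and its scaling factor of 1.175 was the highest of the 9. For a check of the mating type, the 13 a-specific and mating genes summed to 615 to 908 scaled TPM and the 3 tested alpha-specific genes to 31.7 to 56.0.

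R787G cells held more RNA of genes used late in mitosis and in the parting of daughter cells than cells with no Scc2 insert did. Of 6087 features, 172 were called by limma at an adjusted p under 0.05 (2.83% of those tested), 137 of them higher in R787G (2.25%) and 35 lower (0.575%). The log2 fold, taken on scaled TPM + 1, was at least 1 in size in 28 of the higher and 3 of the lower features, and the median fold over all features was 0.00. The 28 include SCC2, the plasmid insert. The 3 are VEL1, the plasmid marker HIS3 and YOR203W beside it. The higher calls had a median log2 fold of 0.65 and the lower calls of -0.46. The libraries of the groups did not overlap at any of the 172, nor at 1447 features in all (23.8%).

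The number of calls rests in part on single libraries and on the WT libraries that share the estimate of spread. It was 79 (75 higher, 4 lower) when only the R787G and empty_vector libraries were fitted; without R787G library 2 it was 87 and without library 3 it was 99; without empty_vector libraries 1, 2 and 3 it was 101, 110 and 109, and without WT libraries 1 and 2 it was 99 and 113. The split by direction depends on the scaling: with TPM as deposited, which lowers the median fold of all features to -0.15, 59 of 153 calls were higher and 94 lower, and 88 calls were shared with those above in the same direction. Each of the 172 kept its direction in every alternative in which it was tested, and 48, of which 45 were higher, were called in all 20 alternatives. The 3 lower ones of these were HIS3, YOR203W and MEP2, an ammonium transporter (31.0, 33.3 and 26.4 against 43.1, 50.3 and 45.4 scaled TPM).

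**Figure D2:**
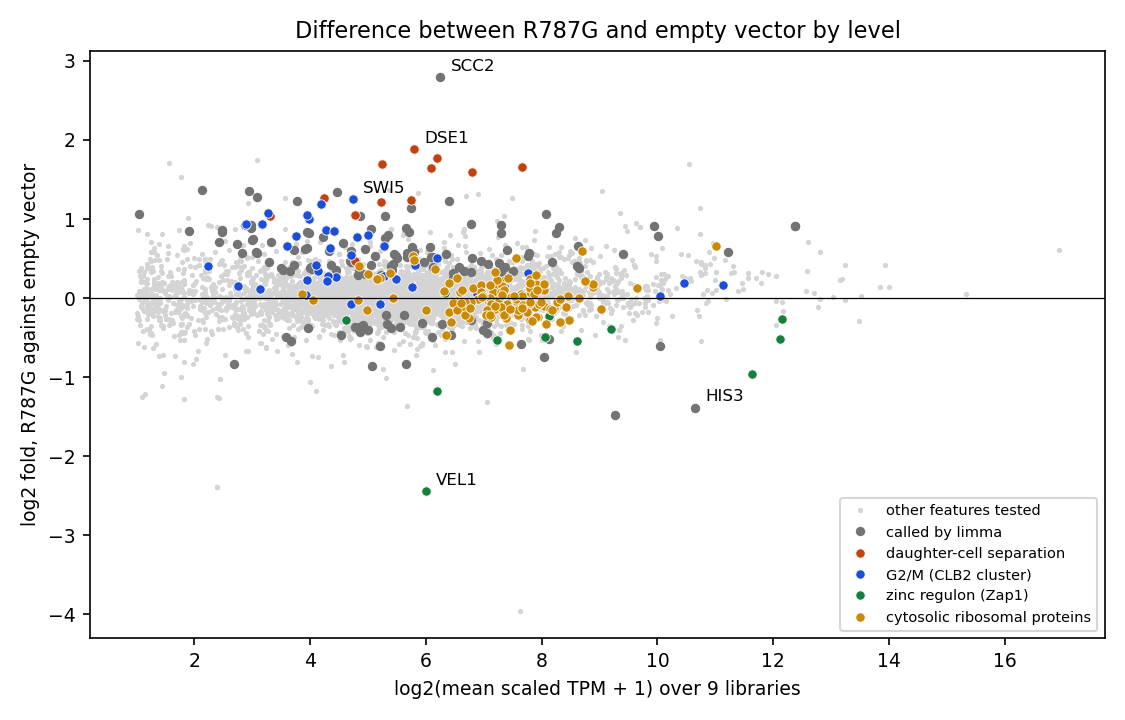
Log2 fold of R787G against empty_vector for each of 6087 features against log2 of the mean scaled TPM plus 1 over 9 libraries; dark grey points are the 172 called features and colours mark the members of 4 gene lists, called or not. The daughter-cell separation genes lie between 0.47 and 1.88, while cytosolic ribosomal protein genes spread around a median of -0.02.

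All 12 genes of the daughter-cell separation list were higher in R787G, where 2.25% of all features were. Their median log2 fold was 1.43. That these genes change with Scc2 was known from earlier results of these data, so their direction is not independent evidence. DSE1, a daughter-specific cell wall protein, was at 76.1, 86.5 and 89.3 scaled TPM in R787G and at 27.2, 18.5 and 21.02 in empty_vector. Each R787G library was well above each empty_vector library, and the fold was 1.88 (SE 0.14, limma adjusted p = 0.000195). DSE4, a glucanase of the septum, stood at 94.3, 108 and 125 against 36.0, 24.6 and 33.6 (fold 1.77, SE 0.16). SCW11, a glucanase-like wall protein, was at 49.1, 51.5 and 64.9 against 17.4, 13.5 and 18.1 (fold 1.70). CTS1, the chitinase that cuts the primary septum, was at 256, 283 and 353 against 98.1, 74.3 and 109 (fold 1.66, SE 0.15). These 4 enzymes and wall proteins thus showed no overlap between the groups, and in each the highest value was in R787G library 3 and the lowest in empty_vector library 2.

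EGT2, a wall protein of early G1, was at 82.3, 82.9 and 125 scaled TPM in R787G and at 34.0, 22.7 and 34.1 in empty_vector (fold 1.64). Here R787G library 3 stood above the other two, which agreed closely. DSE2 (fold 1.597), PRY3, a wall-anchored protein (1.26), SUN4 (1.21), DSE3 (1.05), BUD9, a bud site marker (1.03), and NIS1 (0.47), which sits at the bud neck, completed the list. AMN1, which turns off the mitotic exit network in daughter cells, was at 63.0, 73.6 and 80.4 against 32.0, 25.8 and 32.0 (fold 1.24, SE 0.12). Summed over the list, the level was 908 to 1196 scaled TPM in R787G, 285 to 388 in empty_vector and 730 to 812 in WT. The R787G sums were above the WT sums in all libraries, and both were above empty_vector. The count of higher members was 11 or 12 under each of the 20 alternatives.

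**Figure D3:**
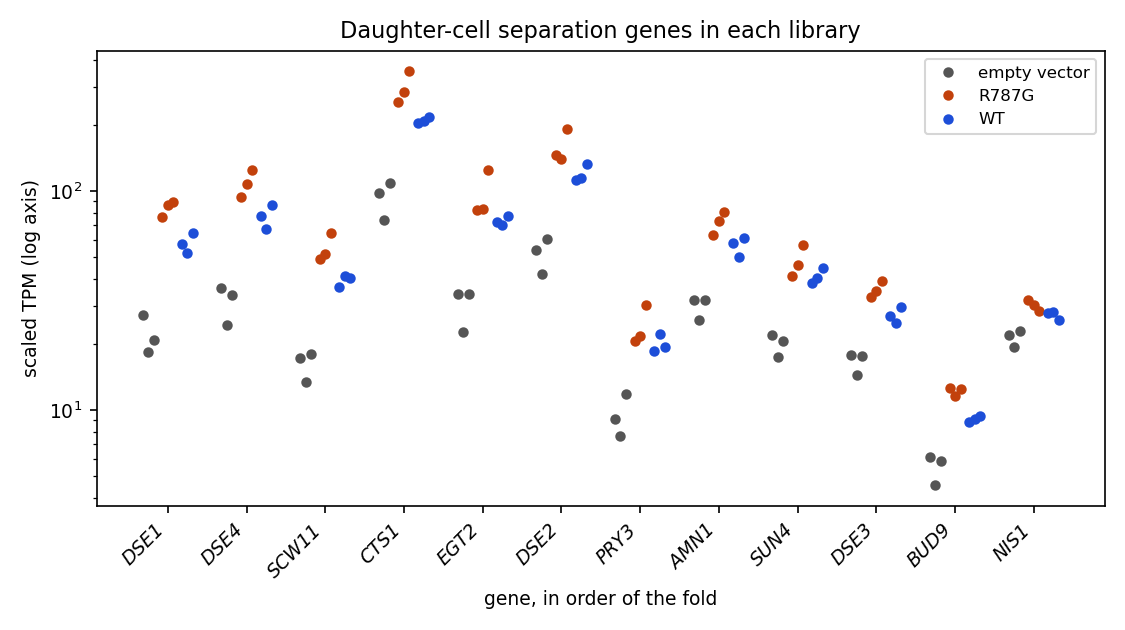
Scaled TPM on a log axis of the 12 daughter-cell separation genes, in order of the fold, with 1 point per library for each of 3 groups. For each gene the 3 R787G points lie above the 3 empty_vector points, with CTS1 at 256 to 353 against 74.3 to 109.

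Of 40 genes of the CLB2 cluster (the G2/M list), 20 were higher in R787G, where 2.25% of all features were, none was lower and 20 did not pass. The median log2 fold was 0.42, and 29 of the 40 showed no overlap between the groups, as did 23.8% of all features. SWI5, a transcription factor that acts at the end of mitosis, was at 31.9, 31.9 and 33.8 scaled TPM in R787G and at 13.0, 11.96 and 14.4 in empty_vector. The R787G values lay close to those of WT, at 32.0, 31.3 and 30.6, and the fold was 1.25 (SE 0.07, limma adjusted p = 5.98e-05). The mitotic cyclin genes were also higher: CLB2 at 9.21, 10.3 and 9.36 against 4.25, 4.38 and 5.04 (fold 0.94), and CLB1 at 8.01, 8.25 and 8.41 against 3.87, 4.02 and 3.64 (fold 0.93). In both cyclin genes each R787G library held about the same level as the next, and the groups were far apart for their spread. CDC5, the polo kinase that promotes mitotic exit, was at 22.7, 22.2 and 21.8 against 14.1, 13.5 and 14.3 (fold 0.63, SE 0.06).

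Other members of the cluster serve the septum and the bud neck. CHS2, the chitin synthase of the primary septum, was at 15.9, 17.1 and 19.8 scaled TPM against 8.32, 7.23 and 8.42 (fold 1.05, SE 0.09). HOF1, which links septins to the contractile ring, rose by 0.94, IQG1, the ring's IQGAP, by 0.78, and MYO1, its myosin, by 0.54. BUD4, a bud site protein at the neck, rose by 0.65. With CYK3 (0.36), the genes CHS2, HOF1, IQG1 and MYO1 made 5 higher calls among 16 septin and cytokinesis genes, where 2.25% of all features were higher. That list had no lower call and a median of 0.10. Further rises in the cluster were HST3, a histone deacetylase (1.19), AIM20 (1.08), the kinase KIN3 (1.00), ALK1, a haspin-like kinase (0.87), FRK1 (0.85), SPO12, a regulator of exit from mitosis (0.80), DBF2, a kinase of the mitotic exit network (0.66), SUR7 (0.51), KIP2, a kinesin (0.42), and MMR1 (0.42). The calls were not spread over the cluster's own activators: the fold was 0.23 for FKH1, -0.07 for FKH2 and -0.08 for NDD1, and none passed. CDC20, the anaphase activator, was at 0.28 and did not pass. Under the 20 alternatives the number of higher members ran from 15 to 21.

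**Figure D4:**
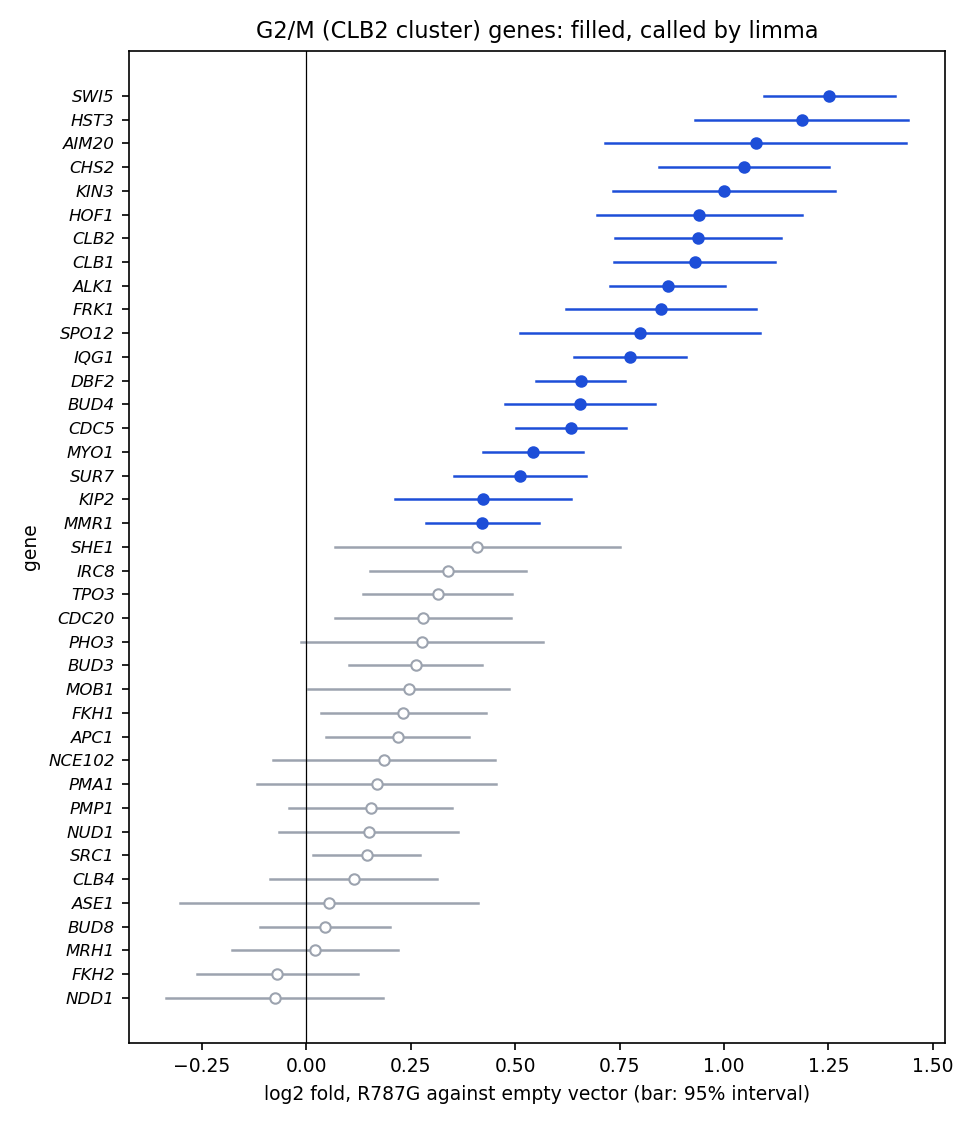
Log2 fold of R787G against empty_vector for 39 of the 40 genes of the CLB2 cluster with 95% intervals from limma; filled points were called and open points were not. The folds run from -0.08 for NDD1 to 1.25 for SWI5, and 19 genes are filled.

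Forkhead factors bind GTAAACA. That motif, on either strand, was found in the 500 bases before the start codon for 20 of the 40 cluster genes (50.0%), against 590 of 5675 tested genes (10.4%). It was found for 12 of the 20 members called higher (60.0%) and for 8 of the 20 not called (40.0%), and for 29 of all 129 higher genes with a window (22.5%). Parts of the windows of 3 members are shown, those of largest fold with a match at least 120 bases before the start codon. Capitals mark the motif. The sequences are from the RefSeq R64 genome (S288C) and are written in the direction of the gene, and windows of divergent neighbours share sequence. The windows were not cut where a neighbouring gene begins. A match, also in the sequences shown, can therefore lie in the coding sequence of that gene and need not be a promoter site. They come from chrIV:751010-751070 on the - strand, chrIX:45722-45782 on the + strand and chrXIII:335071-335131 on the + strand.
SWI5: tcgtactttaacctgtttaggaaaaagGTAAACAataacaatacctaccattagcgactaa
AIM20: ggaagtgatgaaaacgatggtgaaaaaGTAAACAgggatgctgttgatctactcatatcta
HOF1: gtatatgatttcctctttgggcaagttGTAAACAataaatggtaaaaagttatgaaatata

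Around the exit from mitosis, AMN1, SPO12 and DBF2 were the called members of 14 mitotic exit network genes, all higher, with a list median of 0.07. Each was counted in a list above, AMN1 with the daughter-cell genes and SPO12 and DBF2 in the CLB2 cluster. Of all features 2.25% were higher. In the early G1 list 5 of 12 genes were higher against that share, and none lower (median 0.25). With all 12 libraries in the fit 1 was higher, and with TPM as deposited 2 were (median 0.10). PIR1, a structural wall protein, was at 371, 354 and 427 scaled TPM in R787G against 221, 195 and 233 (fold 0.82, SE 0.10). PCL9, a cyclin of early G1, was at 49.9, 46.8 and 47.7 against 28.7, 27.1 and 28.4 (fold 0.76, SE 0.06). R787G also stood above WT (38.2, 36.1 and 40.9) in every PCL9 library, a difference given here as values. SIC1, the inhibitor of mitotic kinase, was at 135, 132 and 124 against 95.2, 84.5 and 93.7 (fold 0.51), RAX2, a bud site gene, rose by 0.63 and PCL2, a cyclin, by 0.46. None of the 12 genes of the Mcm1 early cell cycle box list, which holds the MCM helicase genes, was called (median 0.08); YOX1 was at 0.46 (adjusted p = 0.174, limma) and CDC45 at 0.25.

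Among G1/S genes, driven by SBF and MBF, 5 of 51 tested were higher and 1 lower, with a median of 0.13. Of all features 2.25% were higher and 0.575% lower. With TPM as deposited 1 was higher and 1 lower, with a median of -0.02. DUN1, a checkpoint kinase, was at 20.7, 20.4 and 24.6 scaled TPM in R787G and at 14.2, 14.7 and 13.2 in empty_vector (fold 0.60, SE 0.08). Its groups did not overlap. Among the others, GAS1, a wall glucanosyltransferase, rose by 0.57 and SWE1, the kinase that restrains mitosis, by 0.38. RAD27, the flap endonuclease of DNA replication, went the other way, from 37.4, 37.7 and 35.1 to 25.9, 29.9 and 26.8 (fold -0.40, SE 0.07). DUN1 is also in the DNA damage list, where 3 of 12 were higher against 2.25% of all features, and 1 with TPM as deposited. Another of these, HUG1, an inhibitor of ribonucleotide reductase, was low in all libraries (7.67, 5.44 and 4.59 against 2.45, 2.96 and 2.77) and its call was lost in 15 of the 19 alternatives that tested it. None of 11 histone genes was called (median 0.22); HHF1 was at 0.57 (adjusted p = 0.110, limma) and HTA2 at 0.42.

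In the cohesin ring, MCD1 was the 1 gene of 4 called, where 2.83% of all features were. That call was lost in 2 of 20 alternatives, 1 of them with TPM as deposited. MCD1 was at 8.47, 7.84 and 8.54 scaled TPM in R787G, 5.09, 5.24 and 5.33 in empty_vector and 9.17, 7.91 and 9.08 in WT. The R787G and WT libraries overlapped and both stood above empty_vector; the fold between R787G and empty_vector was 0.58 (SE 0.08, limma adjusted p = 0.00713), and MCD1 belongs to the G1/S list as well. SMC1 (0.11, unadjusted 95% interval -0.04 to 0.27), SMC3 (0.06, interval -0.08 to 0.20) and IRR1 (-0.18, interval -0.32 to -0.03) did not pass. SCC4, the loader's other subunit, was at 24.4, 27.4 and 30.1 against 25.8, 22.2 and 22.8 (fold 0.20, SE 0.10). Its groups overlapped. None of 7 cohesin regulators passed (median -0.10). PDS5, which keeps and removes cohesin, was lowest at 11.7, 11.9 and 11.5 against 13.2, 14.3 and 14.4 (fold -0.24, adjusted p = 0.0954, limma). Separase ESP1 (-0.06), securin PDS1 (-0.20), the acetyltransferase ECO1 (-0.10), the deacetylase HOS1 (-0.12), the releaser RAD61 (-0.05) and shugoshin SGO1 (0.03) did not pass. Of 13 condensin and Smc5/6 genes, YCS4, a condensin subunit, was higher (10.9, 11.7 and 12.2 against 9.17, 8.74 and 8.72, fold 0.35), and of 12 spindle checkpoint and passenger genes, BUB3 was higher (fold 0.38). Those calls were lost in 14 and 13 of 20 alternatives.

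Cell wall genes gave 5 higher calls and 1 lower among 29 tested (median 0.15), where 2.25% of all features were higher and 0.575% lower. With TPM as deposited 1 was higher and 1 lower (median -0.002), and with only the R787G and empty_vector libraries fitted 2 were higher and none lower. ECM33 rose by 0.61, CRH1, a chitin transglycosylase, by 0.45 and SCW10 by 0.51, besides PIR1 and GAS1 above, while TIR2 fell by 0.49; the calls of SCW10 and ECM33 were lost in 11 and 6 of 20 alternatives. PSA1, the enzyme that makes GDP-mannose for wall glycoproteins, was at 324, 390 and 346 scaled TPM against 180, 160 and 163 (fold 1.07, SE 0.10); it is in no list here and was named after its value was seen. The largest rises outside the lists above, among genes with a mean of 5 or more, were DAK2, a dihydroxyacetone kinase (23.1, 31.8 and 35.7 against 10.7, 11.1 and 11.7, fold 1.34), and the small open reading frames YOL085W-A (1.35) and YLR285C-A (1.28), whose calls were each lost in 11 of 20 alternatives. YLR285C-A (chrXII:708168-708338) lies just past the end of CTS1 (chrXII:708448-710136) on the same strand. Its reads cannot be told apart from those of CTS1 with certainty. BAR1, the protease that degrades alpha factor, was at 19.1, 20.9 and 16.6 against 9.86, 9.97 and 10.5 (fold 0.83, SE 0.08) and was the 1 of 13 a-specific and mating genes called. No gene of the alpha-specific list was called, with SAG1 at -0.23 and MF(ALPHA)1 at -0.63. Of 16 tested meiosis genes ZIP1 was lower (-0.43), a call lost in 11 of 20 alternatives.

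The lower calls were fewer and smaller. In the zinc regulon, genes that Zap1 switches on when zinc is short, 3 of 13 were lower, where 0.575% of all features were, and 12 of 13 had a fold below 0 (median -0.49). VEL1, of unknown function, was at 37.4, 34.0 and 7.68 scaled TPM in R787G and at 142, 146 and 86.9 in empty_vector. The groups did not overlap, but R787G library 3 was far below the other two, and the fold of -2.44 (SE 0.53, limma adjusted p = 0.0496) lost its call in 12 of 20 alternatives. ZAP1 itself was at 250, 229 and 205 against 335, 323 and 302 (fold -0.49, SE 0.10) and IZH1, a membrane protein of zinc homeostasis, at 139, 107 and 127 against 172, 184 and 181 (fold -0.53); each lost its call in 9 of 20. ZPS1 (-0.97), the transporter gene FET4 (-1.18) and ZRT2 (-0.54) did not pass, nor did the zinc importer gene ZRT1 (-0.26). Without R787G library 2 none of the 13 was called, and likewise without each empty_vector library, without WT library 1 or 2 and with only the R787G and empty_vector libraries fitted; with TPM as deposited 7 were, and without R787G library 3 the median was -0.27.

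Genes of amino acid synthesis and glucose response also had lower calls. Among 43 Gcn4 targets of amino acid synthesis, ARG3, ARG1 and ARG8 of arginine synthesis were lower, where 0.575% of all features were, and none was higher, with a list median of -0.05. ARG3 was at 231, 204 and 178 scaled TPM against 337, 361 and 327 (fold -0.75, SE 0.10), and ARG1 at 932, 965 and 774 against 1265, 1437 and 1365 (fold -0.61). Both showed no overlap; the call of ARG3 was lost in 1 of 20 alternatives, that of ARG1 in 5 and that of ARG8 (-0.46) in 12. With only the R787G and empty_vector libraries fitted 1 of the 43 was lower. ARG80, a regulator of arginine genes outside the list, also fell, by 0.31. Among 23 genes of glucose transport and repression 2 were lower, where 0.575% of all features were. These were NRG2, a repressor (44.8, 37.5 and 33.7 against 62.4, 86.2 and 61.8, fold -0.84), and RGT2, a glucose sensor (-0.37). Their calls were lost in 10 and 13 of 20 alternatives, and none of the 23 was called with only the R787G and empty_vector libraries fitted or with no variance trend. Further falls were SUL1, a sulfate permease (-0.86), AQY1, an aquaporin (-0.83), RTC4 (-0.59), MEP2 (-0.60) and YHR069C-A (-0.55). The calls of SUL1, RTC4, AQY1 and YHR069C-A were lost in 15, 12, 10 and 8 of 20 alternatives; for SUL1, R787G library 3 stood at 30.6 and empty_vector library 3 at 34.9.

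Several large groups had shifted medians with few or no calls. All 34 proteasome genes had a fold above 0, from 0.14 to 0.56 with a median of 0.38, and none was called. The median over all features was 0.00. With TPM as deposited the proteasome median was 0.22 and that of all features -0.15. Members of a list come from the same libraries, so counts of members above 0 are not counts of independent results. The summed proteasome level was 8856, 9683 and 12430 scaled TPM in R787G and 8841, 7271 and 7757 in empty_vector. R787G library 1 and empty_vector library 1 thus stood at nearly the same sum, while the other libraries were apart. All 23 chaperone genes of Hsf1 had a fold above 0 (median 0.46, and 0.30 with TPM as deposited). HSP104, the disaggregase, was called at 680, 835 and 918 against 587, 506 and 544 (fold 0.56, adjusted p = 0.0496, limma). Its call was lost in 16 of 20 alternatives: the list held none with TPM as deposited, with a pseudocount of 0.1 or 5, or without R787G library 2 or 3 or any 1 empty_vector or WT library, and 15 without R787G library 1. Of 32 stress genes under Msn2 and Msn4, 2 were higher, where 2.25% of all features were. These were SSA3, a heat shock chaperone (131, 146 and 149 against 60.7, 88.1 and 73.9, fold 0.94), and HSP30 (0.91, a call lost in 8 of 20 alternatives). The 10 tested members of the mitochondrial genome list all had a fold above 0 and none was called. Their median was 0.67, and 0.51 with TPM as deposited. The mitochondrial features AI1, AI2, AI4 and SCEI, outside the list, were called higher. Over the list, empty_vector library 3 summed to 8600 against 14650 to 20330 in the other libraries of these 2 groups, and without it the median was 0.30.

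Ribosome biogenesis genes stood level between R787G and empty_vector, with 0 of 89 called and a median of 0.00, between -0.23 and 0.19. RRP5 was at 0.19 and RRP3 at 0.16. With TPM as deposited the list median was -0.16, where that of all features was -0.15. The list summed to 4847 to 5165 scaled TPM in R787G and 4725 to 5147 in empty_vector, and to 5316 to 5671 in WT, above both. None of 138 cytosolic ribosomal protein genes (median -0.02), 35 genes of RNA polymerase I and III (0.01), 67 mitochondrial ribosomal protein genes (0.10), 38 respiratory chain genes (0.06), 26 ergosterol genes (0.04), 22 iron regulon genes (-0.08), 16 phosphate genes (-0.06), 12 purine genes (0.02) or 19 glycogen and trehalose genes (0.09) was called by limma. Of all features 1217 had an unadjusted p under 0.05. In the iron regulon TIS11, which degrades messenger RNAs, had the lowest fold, -1.005 (31.7, 41.1 and 17.7 against 49.0, 82.9 and 48.6), and GSY2, glycogen synthase, was just outside the threshold at 0.32 (adjusted p = 0.0504, limma). None of 76 snoRNA features was called (median 0.11), nor any of 16 ribosomal and other abundant RNAs (0.37).

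**Figure D5:**
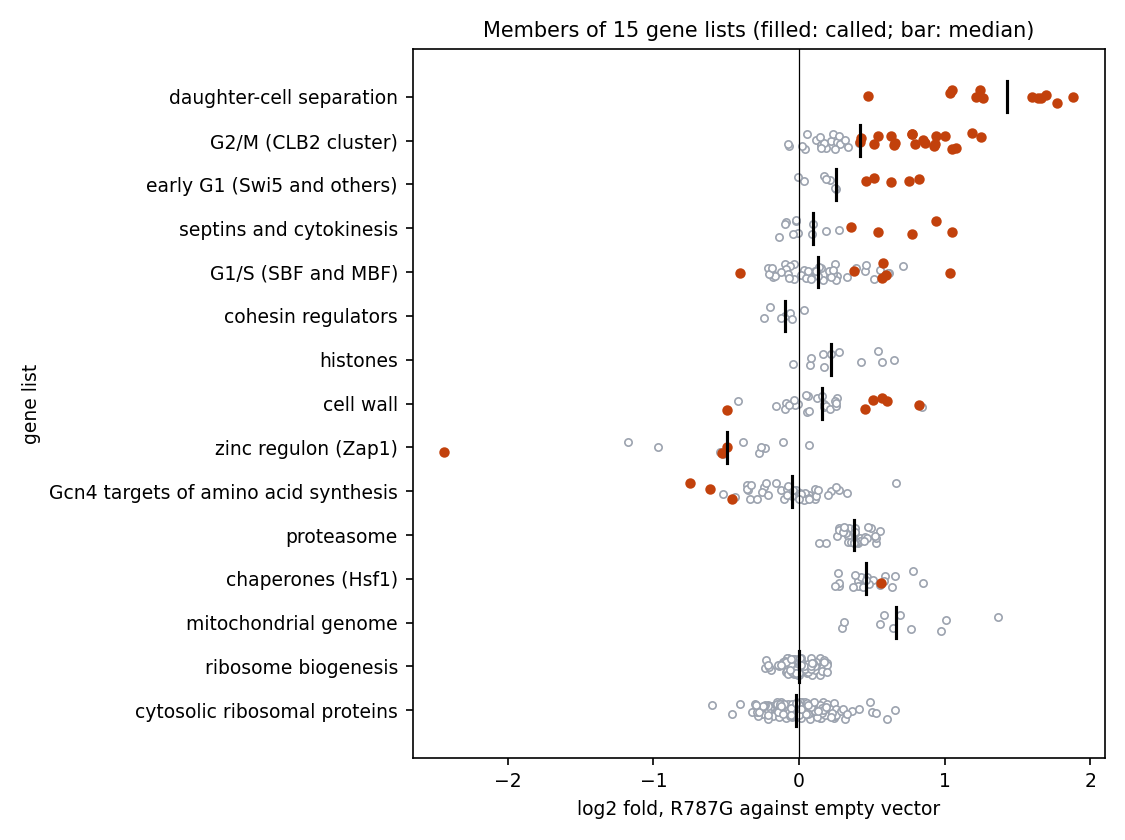
Log2 fold of R787G against empty_vector for the members of 15 gene lists, with 1 point per gene, filled where limma called it, and a bar at the list's median. The medians run from -0.49 for the zinc regulon to 1.43 for the daughter-cell separation genes, and the ribosomal lists centre near 0.

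Where WT stood at these genes was read from means, as a description, since WT shares the estimate of spread. The genes were picked because R787G and empty_vector differ, and at each the libraries of these groups did not overlap. A group outside that choice tends to fall between groups picked to be apart. The counts below therefore cannot show how far R787G restores the WT level, and the shares over all features are not given. The WT mean lay between the groups for 116 of the 137 higher genes and for 25 of the 35 lower ones. It was at or beyond R787G for 19 higher and 10 lower genes, and at or beyond empty_vector for 2 higher genes. It was nearer to R787G than to empty_vector for 121 of the higher and 35 of the lower genes. The WT libraries overlapped those of R787G at 75 higher and 29 lower genes, and those of empty_vector at 12 and 0. CHS2, SPO12 and MCD1 were among those at which the WT mean was at or beyond R787G. The daughter-cell genes DSE1, DSE4, SCW11 and CTS1 had WT between the groups, with DSE1 at 57.8, 52.1 and 64.8 scaled TPM in WT, below every R787G library.

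Called genes were spread over the chromosomes. Of 396 tested genes within 25 kb of a centromere, where cohesin is dense in yeast, 8 were higher and 1 lower (2.27%), with a median fold of 0.01. Of 255 within 25 kb of a chromosome end 9 were higher and 2 lower (4.31%), and of the other 5134, 112 were higher and 30 lower (2.77%). Of 34 tested members of the subtelomeric families 2 were higher, where 2.25% of all features were. These were YRF1-8 (8.89, 11.2 and 9.53 against 4.63, 5.96 and 5.85, fold 0.75) and YRF1-1 (0.73), near-identical helicase genes whose reads cannot be told apart with certainty. For YRF1-8 the WT libraries, at 5.71, 6.5 and 5.18, overlapped those of empty_vector and not those of R787G. The calls of YRF1-8 and YRF1-1 were lost in 3 and 6 of 20 alternatives. By chromosome the share called ran from 1.76% on V to 4.17% on VI, where 5 of 120 genes were higher.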

How the data were processed

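RNA of 12 yeast cultures underwent ribosomal RNA depletion and stranded library preparation before single-read sequencing, per the labels' protocols. The deposited values are TPM, which the authors made with RSEM, as the deposited table's name says; the submitters' processing notes list sacCer3, RSEM, STAR, edgeR and bcl2fastq 2.17 without roles, and whether strand was used in counting is not given in the sources used here. Of 7036 features, 3 whose values a comma had shifted, and 1 unnamed column, were left out. TPM keeps no depth, so there are no counting intervals.

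Each library's TPM was divided by a median-of-ratios factor, taken over the 5425 features that averaged at least 10 TPM and were never 0. The 6087 features with mean TPM of 1 or more over the 9 R787G, empty_vector and WT libraries were fitted on log2(scaled TPM + 1) with limma 3.58.1 (R 4.3.3; variance trend, two-sided, Benjamini-Hochberg over all features, called under 0.05). Fold changes are on that scale and understate changes of low genes. The libraries labelled G1242V were left out of this fit because they differ in SCC2. The smallest p that exact permutation of 3 against 3 libraries allows is 0.1, so none is given. On simulated data for this comparison with 6087 features, 91 of 100 features changed by 1 on the log2 scale and 98 of 100 changed by 2 were recovered, with 8 unchanged features called.

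The named genes are the 12 largest rises and 12 largest falls among calls without overlap that averaged at least 5 TPM, SCC2, HIS3, the cohesin genes, and up to 4 called members of each of 40 lists (or up to 2 of smallest p); other called genes were named after their values were seen. Some genes and a motif are not reported here. The genes and lists were chosen with earlier results of these data known. Alternatives were the pseudocount, the filter, the scaling, the libraries fitted, the variance trend, a replicate block and leaving out each library. Coordinates and sequences are from RefSeq R64, the release behind sacCer3; the table holds none.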

Additional observations from a re-analysis of the deposited data

Results flagged for a closer look

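The 3 libraries labelled G1242V are in no comparison above. SCC2 RNA stood at 51.5 scaled TPM in library 1 and at 93.9 in library 2 of that label, both above the 12.2 to 12.9 of the empty_vector libraries, while library 3 was at 12.5. Libraries 1 and 2 were marked because a signal above the control level appears in libraries outside the comparison. G1242V, like R787G, is the label of an Scc2 variant, yet library 3 held SCC2 RNA at the empty_vector level. Library 1 lay between library 3 and library 2. HIS3 was at 2515 and 2797 scaled TPM in libraries 1 and 3, within the empty_vector range, and at 1049 in library 2. Libraries 1 and 3 thus both differ from library 2 in these plasmid genes. The reason was not tested.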

How the results depend on the processing

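Against 172 calls in the fit reported, the total number of calls was 159 and 169 with a pseudocount of 0.1 and 5, 154 with no filter, 173 with a mean TPM of 5 or more, 143 with quantile normalization, 144 with all 12 libraries in the fit (122 of them among the 172) and 148 with no variance trend. Fitting only the R787G and empty_vector libraries gave 79, of which 77 were among the 172. Leaving out each library in turn gave 87 to 234 calls. Same-numbered R787G and empty_vector libraries had deviations correlated at -0.26, 0.12 and 0.24, and differently numbered ones at -0.445 to 0.409. With 3 libraries per group these values cannot tell whether libraries of the same number share a batch. A replicate block gave 201 calls, and 70 in the fit of only R787G and empty_vector. The count of higher members stayed within 1.5 times for the daughter-cell and G2/M lists, an alternative chosen after seeing the data, as were the counts of other lists by alternative. Precision is limited by 3 libraries per group and by the unknown depth behind TPM. The cause of these differences was not tested.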

Other observations

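LEU1, isopropylmalate isomerase of leucine synthesis, and OAC1, a mitochondrial carrier, are in no list above and were named after their values were seen. LEU1 was at 401, 381 and 460 scaled TPM against 191, 251 and 225 in empty_vector (log2 fold 0.90, SE 0.12). OAC1 was at 67.2, 58.7 and 70.5 against 34.1, 41.0 and 33.8 (0.83). LEU2, a member of the list of plasmid and strain markers and carried as a mutant allele, was at 103, 103 and 104 in R787G against 65.1, 76.2 and 69.6 in empty_vector and 63.0, 72.7 and 67.7 in WT (0.55, SE 0.08, limma adjusted p = 0.00449). In LEU2 the R787G libraries stood above those of both other groups.

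CUP1-1 and CUP1-2, metallothionein copies with identical values in the table, rose by 0.91, from 4261, 3281 and 2861 scaled TPM in empty_vector to 6105, 5656 and 7685 in R787G. The features AI1 (0.59), AI2 (0.78) and AI4 (0.53) share the first base of COX1 and end at different bases within it, so they also overlap each other. SCEI (1.03) lies in the intron of the large mitochondrial ribosomal RNA. Each overlaps its host gene, so their reads cannot be told apart with certainty, and COX1 was not called. YOR387C, a relative of VEL1, had the lowest fold of all features, at 75.9, 53.2 and 4.39 in R787G against 421, 773 and 257 in empty_vector (-3.96, SE 0.97, limma adjusted p = 0.0691), and did not pass.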
